A study of Mus musculus with 12 samples.

Results

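Microglia and complement genes were followed through the brains of mice that drank ethanol heavily and inflexibly or only lightly. The 33 genes were given as a list of symbols covering microglial surface receptors, their signalling adaptors, lysosomal and phagocytic proteins and complement components. Each gene was read from the probe set (a group of short probes for one transcript) with the highest mean over all arrays among those annotated with that single symbol. In this way 31 of the 33 were found among the 18193 genes that could be read in the same way. The complement components C3 and C4b were not analysed here: no probe set in the annotation used named C3 alone, and C4b appeared only on a probe set that also named C4a.

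The mice were male Swiss animals, an outbred stock, without any genetic change named in the labels. From 6 weeks of age they chose among 3 bottles holding water, 5% ethanol and 10% ethanol. Ethanol was offered for 10 weeks, withdrawn for 2 weeks, given back for 2 weeks and then made bitter with 0.005 g/L quinine for a further 2 weeks, and the free choice then went on for a last period of 1 week. The labelled total is 16 weeks, which is shorter than these phases put end to end. Inflexible drinkers kept on preferring ethanol when it was bitter, whereas light drinkers preferred water. The labelled blood ethanol of inflexible drinkers was 113 ± 11.3 mg/dL and that of light drinkers 48 ± 13.3 mg/dL (error of unstated kind), and the mice were 22 weeks old when the experiment ended. Each of the 4 groups (inflexible and light drinkers, prefrontal cortex and whole striatum) had 3 arrays. All animals on these arrays had drunk ethanol, so no comparison with mice that had only water was made. A single RNA pool concentration is labelled for each group, which leaves it possible that a group's arrays are repeats of 1 pool. The p-values then cover the spread between arrays and not the spread between mice.

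Microglia are the resident macrophages of the brain. They watch their surroundings through receptors such as Cx3cr1 and P2ry12, survive through Csf1r and signal phagocytosis through Trem2 and Fc receptors coupled to the adaptors Tyrobp and Fcer1g. In the brain they are the main source of C1q, the three-chain protein (C1qa, C1qb, C1qc) that starts the classical complement cascade and tags synapses for removal during development. The transcription factor PU.1 (gene Spi1) drives much of the microglial programme and binds a purine-rich sequence with the core GAGGAA.

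Promoters, here the stretch of 300 bases mostly before the start of a transcript, were taken from RefSeq (GRCm38.p6) and matched by symbol for 25 of the 31 genes, which gave 28 promoters. They are shown for Ctss and Olfml3, which had a limma adjusted p under 0.05 between the drinking classes in prefrontal cortex. Promoters are also shown for Ly86, which lay higher on the inflexible prefrontal arrays, and for the neighbouring C1q genes C1qb and C1qc. Each is written 5′ to 3′ in the direction of transcription, in lower case, with GAGGAA or its reverse complement TTCCTC in capitals. The Ctss promoter is chr3:95526536-95526835 on the plus strand, C1qc is chr4:136892865-136893164 on the minus strand and C1qb is chr4:136886151-136886450 on the minus strand. Olfml3 is chr3:103737952-103738251 on the minus strand and Ly86 is chr13:37345095-37345394 on the plus strand.
Ctss: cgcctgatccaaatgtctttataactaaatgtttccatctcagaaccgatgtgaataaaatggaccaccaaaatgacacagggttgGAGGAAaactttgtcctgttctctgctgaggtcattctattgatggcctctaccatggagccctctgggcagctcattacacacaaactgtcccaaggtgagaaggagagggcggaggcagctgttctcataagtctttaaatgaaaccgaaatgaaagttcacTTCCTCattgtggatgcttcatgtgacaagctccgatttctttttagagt
C1qc: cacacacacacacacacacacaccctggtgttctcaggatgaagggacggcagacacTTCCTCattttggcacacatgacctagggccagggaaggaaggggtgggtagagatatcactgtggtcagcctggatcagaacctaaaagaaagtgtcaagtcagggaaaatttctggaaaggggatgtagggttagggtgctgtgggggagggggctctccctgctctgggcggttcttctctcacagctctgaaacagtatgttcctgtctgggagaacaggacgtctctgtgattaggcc
C1qb: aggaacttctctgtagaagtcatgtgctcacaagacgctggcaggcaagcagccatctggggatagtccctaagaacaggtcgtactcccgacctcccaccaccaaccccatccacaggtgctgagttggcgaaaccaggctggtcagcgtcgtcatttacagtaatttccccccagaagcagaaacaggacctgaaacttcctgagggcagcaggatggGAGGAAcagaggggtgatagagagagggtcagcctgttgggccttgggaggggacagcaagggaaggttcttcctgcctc
Olfml3: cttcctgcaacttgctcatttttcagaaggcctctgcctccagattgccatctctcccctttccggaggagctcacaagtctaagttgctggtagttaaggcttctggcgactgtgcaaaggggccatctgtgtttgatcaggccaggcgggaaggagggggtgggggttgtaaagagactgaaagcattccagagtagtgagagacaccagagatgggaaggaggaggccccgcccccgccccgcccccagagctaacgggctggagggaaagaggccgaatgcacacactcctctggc
Ly86: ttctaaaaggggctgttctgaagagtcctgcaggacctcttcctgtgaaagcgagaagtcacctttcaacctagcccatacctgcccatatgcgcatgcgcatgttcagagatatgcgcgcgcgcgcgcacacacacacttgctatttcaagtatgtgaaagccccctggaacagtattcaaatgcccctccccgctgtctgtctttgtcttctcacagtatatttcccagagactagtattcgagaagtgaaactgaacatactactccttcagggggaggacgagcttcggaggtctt

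The core GAGGAA, searched on both strands, occurred in 15 of the 28 promoters (53.6%), belonging to 14 genes, against 28.3% of all 32851 promoters of the same length. The longer form GAGGAAGT, whose matches are also matches of GAGGAA, occurred in 3 of the 28 (10.7%: C1qc, Cd53 and Ctss) against 3.2% of all. Among the printed promoters, Ctss held 2 matches of the core, C1qc and C1qb held 1 each, and Olfml3 and Ly86 held 0 in this window. A match is a run of letters and not a measured binding site.

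All levels are the deposited values, read as log2. They ran from 2.76 to 11.56 with array medians between 3.12 and 3.14, and between 22.4% and 25.0% of the probe sets of an array lay above 4, the level under which a gene is called dim here. The spiked hybridisation controls divided the arrays into 5 with high controls (mean of 18 control probe sets from 8.36 to 9.30) and 7 with low controls (6.47 to 7.06), although no label names a batch. The high arrays were replicate 2 of both prefrontal groups, replicates 1 and 3 of inflexible striatum and replicate 1 of light striatum. The 3′ minus 5′ difference of the actin control probe sets, a sign of RNA integrity, ranged from 2.07 to 2.58 in inflexible and from 2.27 to 2.75 in light prefrontal cortex, and from 2.11 to 2.27 in striatum. For Gapdh it ranged from 0.52 to 1.06 in inflexible and from 0.74 to 1.13 in light prefrontal cortex. In striatum the Gapdh ranges were 0.81 to 0.94 in inflexible and 0.58 to 0.92 in light drinkers. For both controls the prefrontal ranges overlapped and reached higher in light drinkers. The part of RNA integrity in the drinking differences was not tested.

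Most of the genes were weak in this whole-tissue RNA. The mean lay under 4 for 17 of the 31, and 11 were above 4 on no array: Itgam, Trem2, Cd68, Fcrls, Siglech, Olfml3, Fcgr3, Ptprc, Gpr34, Cyba and Csf3r. Among the defining microglial markers, the fractalkine receptor Cx3cr1, the colony-stimulating factor receptor Csf1r and C1qa were above 4 on all 12 arrays, and so were Ctss, Ly86, Ctsd, Lgmn and Hexa. The purinergic receptor P2ry12 and the adaptor Tyrobp were above 4 on 11 arrays, while Tmem119, a marker used to tell microglia from other macrophages, was above 4 on 1. Summed on the linear scale in arbitrary units, the 31 genes gave 718 to 812 on the light and 631 to 740 on the inflexible prefrontal arrays. In striatum the sums were 682 to 740 on light and 677 to 753 on inflexible arrays. The ranges overlapped between drinking classes in both regions when the control levels were mixed. In prefrontal cortex the arrays with high controls gave 718 on light and 631 on inflexible. Those with low controls gave 802 and 812 on light and 740 and 728 on inflexible. In striatum the arrays with high controls gave 682 on light and 703 and 677 on inflexible. Those with low controls gave 728 and 740 on light and 753 on inflexible.

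In prefrontal cortex, inflexible drinkers had less Ctss and less Olfml3 than light drinkers. Ctss encodes cathepsin S, a lysosomal protease of microglia that cuts the invariant chain of MHC class II, and Olfml3 encodes a secreted olfactomedin-domain protein typical of microglia. These were the 2 of 31 genes called, meaning an adjusted p under 0.05 in limma with Benjamini-Hochberg adjustment over all 45037 probe sets, and 0 of 31 rose. Of all 18193 genes, 1.04% were called in the same comparison. The differences ran from -0.45 to 0.33 with 22 below and 9 above 0, a median of -0.07 against 0.00 for all genes. An unadjusted p under 0.05 by limma held for 7 of the 31, against 1668 of all 18193 genes. Without replicate 2 of the inflexible group the median of the 31 was -0.00, and without replicate 1 of that group -0.14.

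**Figure D1:**
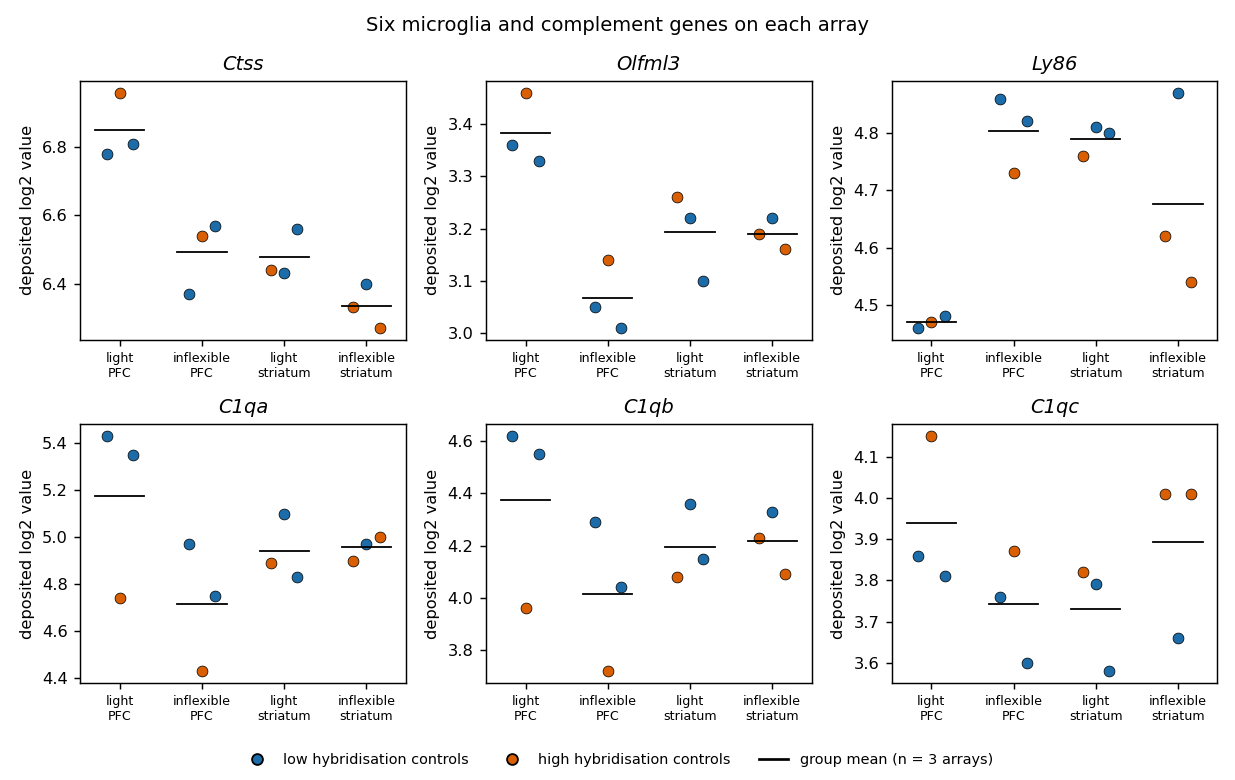
Deposited log2 value (y axis) of 6 genes on each of the 12 arrays by group (x axis), with lines at group means of 3 arrays and colours for low or high hybridisation controls. Ctss and Olfml3 lay lower on every inflexible than on every light prefrontal array and Ly86 higher, while C1qa and C1qb were lowest in both prefrontal groups on the array with high controls.

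Ctss stood at 6.78, 6.96 and 6.81 on the light prefrontal arrays and at 6.37, 6.54 and 6.57 on the inflexible ones. The classes did not overlap. The difference was -0.36 ± 0.07 on the log2 scale (SE, n = 3 arrays a class; 1.28-fold lower; limma, adjusted p = 0.0458). Between arrays with high controls it was -0.41 and between those with low controls -0.33, and the high minus low control difference of Ctss within groups was 0.02. This call ended when any one of the 6 prefrontal arrays was left out (adjusted p from 0.0950 to 0.136) and with the replicate number as a block (adjusted p = 0.0726), where 1 of the 31 genes and 108 of all genes were called in place of 2 and 189. Over the 10 settings run with no array left out it was called in 3, with adjusted p from 0.00901 to 0.189.

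Olfml3 was near the array medians throughout. Its values were 3.36, 3.46 and 3.33 in light and 3.05, 3.14 and 3.01 in inflexible prefrontal cortex. Again each inflexible array lay under each light one, with a difference of -0.31 ± 0.05 (SE, n = 3 arrays a class; 1.24-fold lower; limma, adjusted p = 0.0279). Such a dim gene has a compressed fold change, and a filter for probe sets above log2 4 removed it. The difference was -0.32 between arrays with high and -0.31 between arrays with low controls. Leaving out any prefrontal array other than replicate 2 of the inflexible group ended the call (adjusted p up to 0.120), and over the 9 settings run with no array left out it was called in 7 (adjusted p from 0.000612 to 0.111).

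Ly86 encodes MD-1, the secreted partner of the toll-like receptor homologue RP105 (Cd180). It measured 4.46, 4.47 and 4.48 in light prefrontal cortex and 4.86, 4.73 and 4.82 in inflexible prefrontal cortex. The inflexible arrays all lay above the light ones, and the light arrays were close together (SD 0.01). The difference of 0.33 ± 0.07 (SE, n = 3 arrays a class) missed the threshold (limma, adjusted p = 0.0861). It passed with the control level as a block (adjusted p = 0.0160) and, that one included, in 6 of the 10 settings with no array left out (adjusted p from 0.00102 to 0.179), and it was 0.26 between arrays with high and 0.37 between arrays with low controls. Counting genes whose prefrontal arrays did not overlap between classes gave 4 of 31, namely Ctss, Olfml3 and Tmem119 lower and Ly86 higher on the inflexible arrays. Among all genes this held for 14.1%, so the share of the list was close to the background.

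The C1q chains had the lowest group median of the 5 roles, at -0.36, but none passed the test. C1qa, the first chain, measured 5.43, 4.74 and 5.35 in light and 4.97, 4.43 and 4.75 in inflexible prefrontal cortex. The classes overlapped, since the light array with high controls lay within the range of the inflexible arrays. The difference was -0.45 ± 0.18 (SE, n = 3 arrays a class; limma, adjusted p = 0.569), or -0.31 between the arrays with high and -0.53 between those with low controls. C1qb showed the same order, with 4.62, 3.96 and 4.55 in light and 4.29, 3.72 and 4.04 in inflexible prefrontal cortex. Its difference was -0.36 ± 0.19 (SE; limma, adjusted p = 0.788), and -0.25 and -0.41 between the arrays with high and low controls. C1qc, the third chain, was high where the other chains were low: 3.86, 4.15 and 3.81 in light and 3.76, 3.87 and 3.60 in inflexible prefrontal cortex, a difference of -0.20 ± 0.12 (SE; limma, adjusted p = 0.889). When limma weighted the arrays by their quality, C1qa (-0.55, adjusted p = 0.0113) and C1qb (-0.44, adjusted p = 0.0310) were called and C1qc was not (adjusted p = 0.252). With these weights 1504 of all 18193 genes were called, in place of 189. Without replicate 2 of the light group C1qa, C1qb and C1qc were at -0.67, -0.56 and -0.09, and without replicate 2 of the inflexible group at -0.31, -0.21 and -0.26.

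Of the 13 surface receptors and surface proteins 0 were called, with a median of -0.04. Selplg, the P-selectin ligand PSGL-1, differed by -0.25 ± 0.11 (SE, limma, adjusted p = 0.628) and Tmem119 by -0.21 ± 0.11 (adjusted p = 0.809). Ptprc, the leukocyte phosphatase CD45, differed by -0.19 ± 0.08 (limma, adjusted p = 0.630). With array weights, which called 1504 of all 18193 genes, Ptprc was called at -0.15 (limma, adjusted p = 0.0440). Between the arrays with high controls, 1 a class, it differed by -0.26. Tmem119 stood at 3.79, 3.76 and 4.03 in light and 3.71, 3.47 and 3.74 in inflexible prefrontal cortex, so its classes did not overlap but parted narrowly. The homeostatic receptors Cx3cr1 (-0.07 ± 0.12), P2ry12 (-0.01 ± 0.19) and Csf1r (-0.09 ± 0.09) had differences no larger than their standard errors. Their 95% intervals were -0.33 to 0.19, -0.44 to 0.43 and -0.30 to 0.12. The Fc receptor-like Fcrls had the lone positive difference of this group at an unadjusted p under 0.05 (0.07 ± 0.03; limma, adjusted p = 0.656). The remaining surface genes, Gpr34, Siglech, Itgam, Itgb5, Csf3r and Cd53, lay between -0.12 and 0.05.

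The 4 genes of Fc receptor and TREM2 signalling had a median of -0.02 and 0 calls. Trem2, the lipid-sensing receptor, differed by 0.02 ± 0.08 and its adaptor Tyrobp (DAP12) by -0.06 ± 0.16. The Fc receptor gamma chain Fcer1g differed by -0.16 ± 0.08 (SE; limma, adjusted p = 0.753) and the IgG receptor Fcgr3 by 0.06 ± 0.13. Among the 7 lysosomal and phagocytic genes the median was -0.18, and 5 of them, Ctss included, were below 0. The beta-hexosaminidase chain Hexa gave -0.38 ± 0.30, the lysosomal membrane protein Laptm5 -0.25 ± 0.24, the aspartic protease Ctsd -0.18 ± 0.17 and the pore-forming Mpeg1 -0.15 ± 0.11. None of these last 4 passed (limma, adjusted p from 0.945 to 0.986). With the prefrontal arrays fitted alone and paired by replicate number, Hexa was called (-0.38 ± 0.03, limma, adjusted p = 0.0322). In that fit 498 of all genes were called. Hexa also differed most between arrays with high and low controls (-0.61 ± 0.11), and replicate 2 had high controls in both classes. Without the pairing, leaving out replicate 2 of the inflexible group gave -0.08 and leaving out replicate 2 of the light group -0.68. Cd68 and the asparaginyl protease Lgmn lay at 0.01 and 0.02. The actin-binding Aif1 (IBA1) differed by -0.07 ± 0.19 and the NADPH oxidase subunit Cyba by 0.09 ± 0.09.

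**Figure D2:**
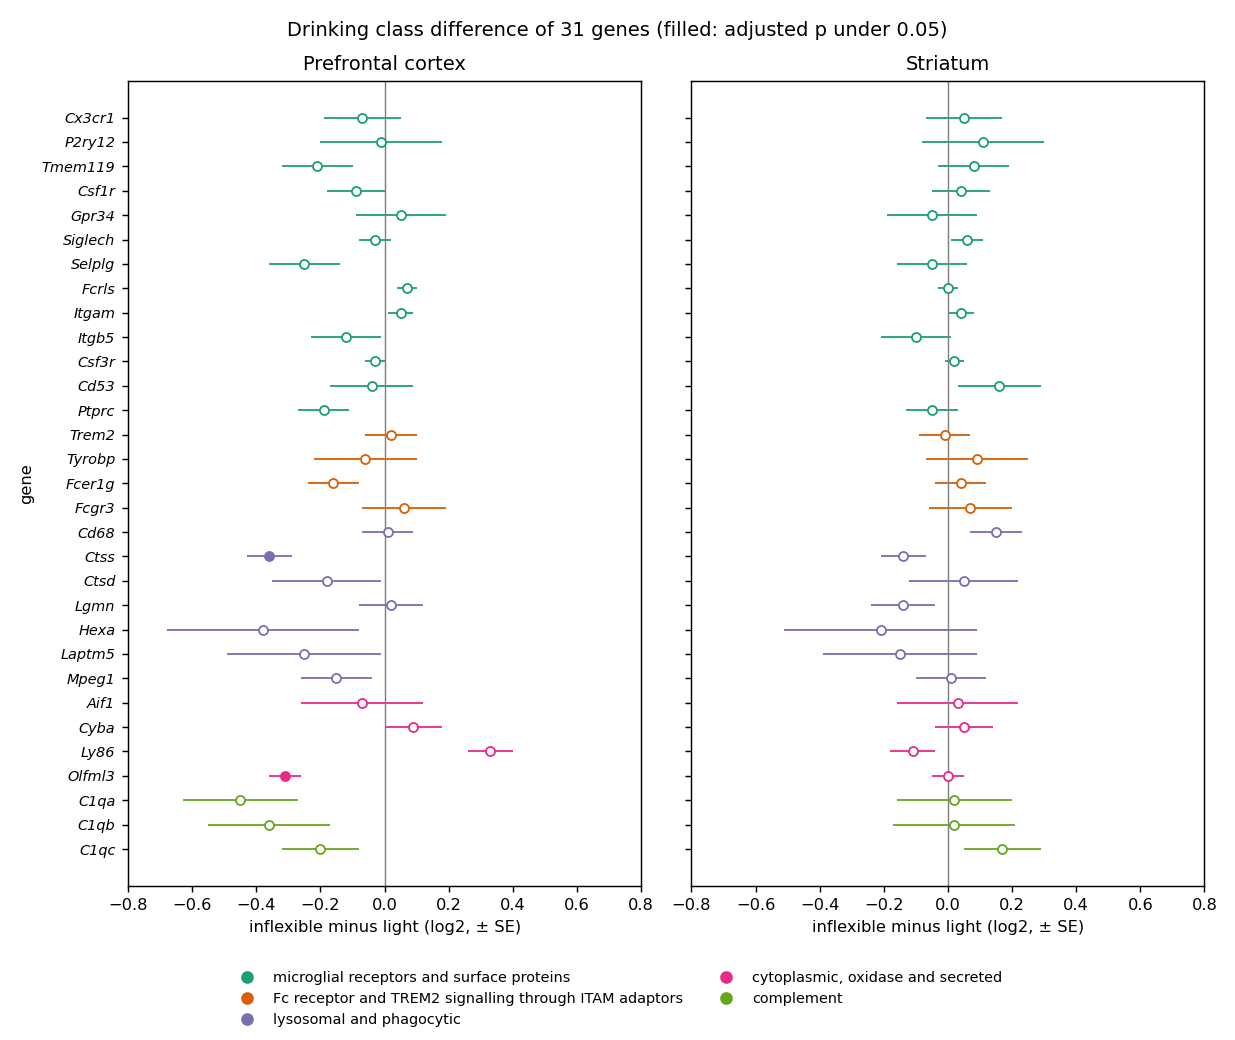
Inflexible minus light difference on the log2 scale (x axis, point and standard error) of the 31 genes (y axis, coloured by role) in prefrontal cortex and in striatum; filled points had an adjusted p under 0.05. Ctss and Olfml3 are the filled points, both in prefrontal cortex, and the striatal points lie between -0.21 and 0.17.

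In striatum the same classes gave 0 of 31 calls by limma, and 0 had an unadjusted p under 0.05, against 672 of all 18193 genes. Of all genes 0.022% were called, which is 4 of 18193. The differences had a median of 0.02 and ran from -0.21 (Hexa) to 0.17 (C1qc), with 20 above and 11 below 0. Ctss was the only one of the 31 genes whose striatal arrays did not overlap between classes, against 7.53% of all genes. It measured 6.44, 6.43 and 6.56 in light and 6.33, 6.40 and 6.27 in inflexible striatum, a difference of -0.14 ± 0.07 (SE, n = 3 arrays a class; limma, adjusted p = 1.00).

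The other genes with prefrontal differences had close or opposite values here. Olfml3 read 3.26, 3.22 and 3.10 in light and 3.19, 3.22 and 3.16 in inflexible striatum, with overlapping arrays and an interval of the difference from -0.12 to 0.11. Ly86 read 4.76, 4.81 and 4.80 in light and 4.62, 4.87 and 4.54 in inflexible striatum, a difference of -0.11 ± 0.07. In the inflexible group Ly86 was lower on both arrays with high controls than on the array with low controls. C1qa read 4.89, 5.10 and 4.83 in light and 4.90, 4.97 and 5.00 in inflexible striatum, a difference of 0.02 ± 0.18. C1qb also differed by 0.02 ± 0.19 (4.08, 4.36 and 4.15 against 4.23, 4.33 and 4.09), and C1qc by 0.17 ± 0.12 (3.82, 3.79 and 3.58 against 4.01, 3.66 and 4.01). All C1q arrays overlapped between the striatal classes.

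Whether the effect of drinking class differed between regions was tested as an interaction (the striatal minus the prefrontal difference). By limma 0 of the 31 genes were called, with 0.44% of all genes called. An unadjusted p under 0.05 held for 3 of the 31, against 1289 of all 18193 genes. Ly86 had the smallest adjusted p of the list (-0.45 ± 0.10, SE over 12 arrays, adjusted p = 0.171), followed by Olfml3 (0.31 ± 0.07, adjusted p = 0.204) and Ctss (0.21 ± 0.09, adjusted p = 0.875). C1qa (0.47 ± 0.26), C1qb (0.38 ± 0.26) and C1qc (0.36 ± 0.18) were also unsupported, with adjusted p from 0.962 to 0.999. The prefrontal calls of Ctss and Olfml3 are thus not shown to be limited to prefrontal cortex. Leaving out replicate 2 of inflexible striatum brought Ly86 past the threshold (-0.54, adjusted p = 0.0109). Averaged over both regions, with 6 arrays a class, 0 of 31 were called (0.374% of all genes were), and Ctss came closest at -0.25 ± 0.05 (limma, adjusted p = 0.0868). An unadjusted p under 0.05 held for 2 of the 31, against 1159 of all 18193 genes.

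Between regions, light drinkers had less Ctss and more Ly86 in striatum than in prefrontal cortex. Ctss fell by 0.37 on the log2 scale (SE 0.07, n = 3 arrays a group; limma, adjusted p = 0.0129) and Ly86 rose by 0.32 (SE 0.07; adjusted p = 0.0437). These 2 calls among 31 genes compare with 4.68% of all genes. The contrast uses the same light prefrontal arrays as the prefrontal drinking comparison, so the values of both are set side by side and are not independent: Ctss stood at -0.37 and -0.36, Ly86 at 0.32 and 0.33, and Olfml3 at -0.19 (limma, adjusted p = 0.102) and -0.31. On all 3 genes it was the light prefrontal group that stood apart, with Ctss and Olfml3 higher and Ly86 lower than the means of the other groups. Leaving out any one of the 6 arrays ended the Ly86 call (adjusted p from 0.0901 to 0.146), while the Ctss call ended only without replicate 1 or 2 of light striatum (adjusted p up to 0.0595).

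Cd53, a tetraspanin, and Mpeg1 also had all light striatal arrays below all light prefrontal arrays, at -0.19 ± 0.13 and -0.32 ± 0.11, without passing the test (limma, adjusted p = 0.767 and 0.216). With Ctss, Ly86 and Olfml3, 5 of the 31 genes had light arrays that did not overlap between regions, against 19% of all genes, so the share was no higher than the background. In inflexible drinkers 0 of the 31 genes were called between regions by limma, and 1.2% of all genes were called. An unadjusted p under 0.05 held for 5 of the 31, against 1736 of all 18193 genes. The scavenger receptor Cd68 was nearest, with 0.22 ± 0.08 (adjusted p = 0.451). Siglech (0.12 ± 0.05), Olfml3 (0.12 ± 0.05) and Csf3r (0.08 ± 0.03), all dim, had every striatal array above every prefrontal array of these mice. P2ry12 had every striatal array below every prefrontal array (-0.21 ± 0.19). With Cd68 these are 5 of 31 genes, close to the 12.6% of all genes whose inflexible arrays did not overlap between regions. These regional comparisons within inflexible drinkers share no array with those within light drinkers.

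The split of the arrays by hybridisation controls touched far more of these genes than drinking class did. Compared within groups, 15 of the 31 genes differed between arrays with high and low controls (limma, adjusted p under 0.05), 13 lower and 2 higher on the high arrays, with a median of -0.15 against 0.01 for all genes. As 33.5% of all genes were called in the same way, the split was not confined to microglial genes. Hexa moved most (-0.61 ± 0.11, SE over 12 arrays, adjusted p = 0.00475), with Laptm5 at -0.44 ± 0.11 and Aif1 at -0.40 ± 0.07. The other probe sets of Laptm5 did not repeat this (-0.03, 0.13, 0.17 and 0.04). Csf1r was called at -0.16 on the probe set used, but its others gave 0.01 and 0.08. Those of C1qb (-0.12 and -0.19) and Cd53 (0.04) kept the sign without passing. Those of Itgb5 (-0.45, -0.25 and -0.28) were called in the same direction as the one used. Tyrobp ran from 3.89 to 4.24 on the 5 high arrays and from 4.34 to 4.53 on the 7 low arrays, and Aif1 from 3.28 to 3.56 and from 3.63 to 4.01. Both therefore parted the arrays completely, whatever the region or class.

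Members of the same complex moved in opposite directions across this split. C1qb was lower on high arrays, at -0.35 ± 0.08 (SE; limma, adjusted p = 0.0154), and C1qa had -0.29 ± 0.10 (adjusted p = 0.0611). C1qc was higher, at 0.25 ± 0.05 (adjusted p = 0.00792), and so was Cd53, at 0.26 ± 0.05 (adjusted p = 0.00655). Ctss (0.02 ± 0.05), Olfml3 (0.07 ± 0.03) and Ly86 (-0.11 ± 0.04) did not pass this test (adjusted p = 0.767, 0.124 and 0.0702). What set the control level of an array was not tested.

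**Figure D3:**
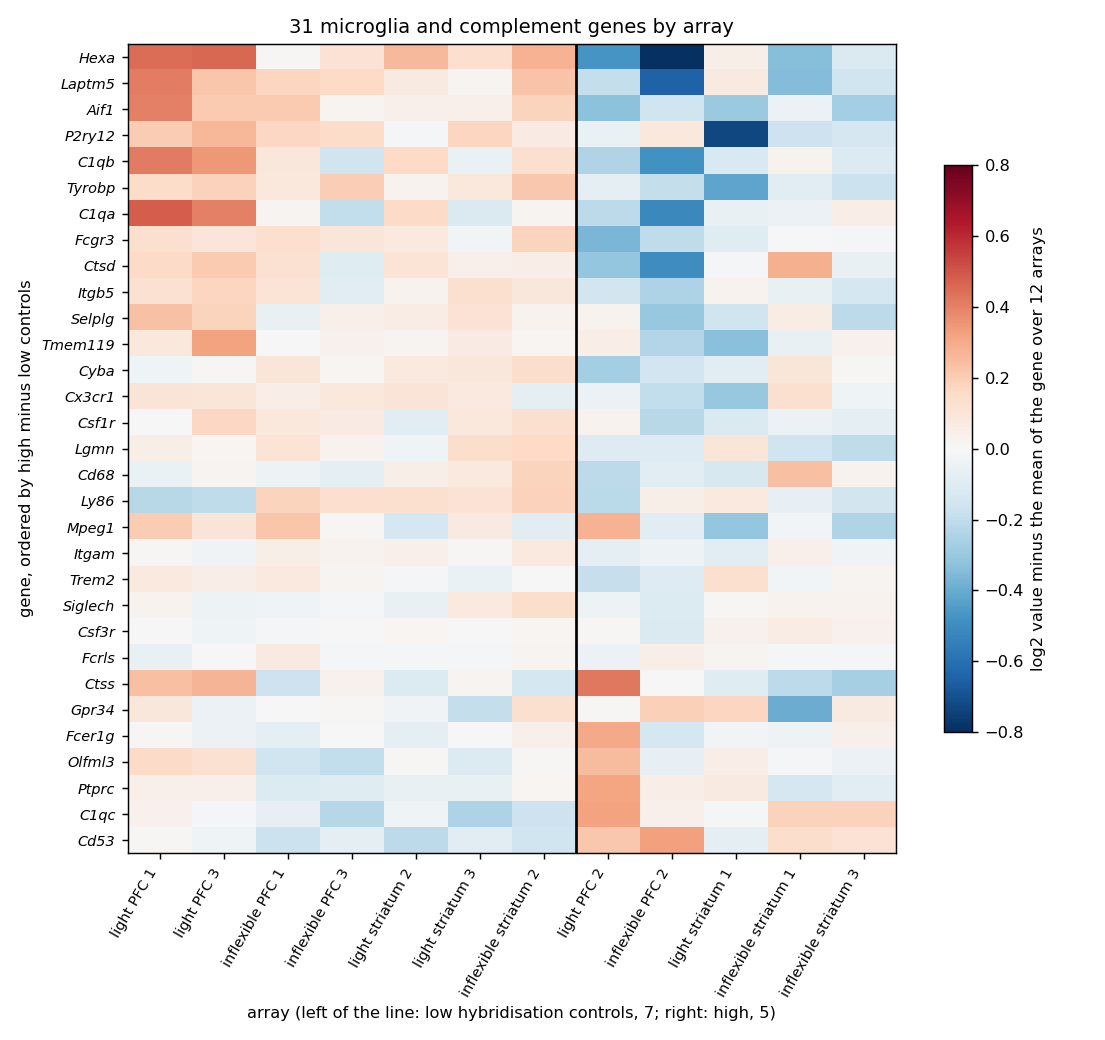
Log2 value minus the gene's own mean over 12 arrays (colour) for the 31 genes (rows, ordered by the high minus low control difference) on each array (columns, with the 7 low-control arrays left of the line and the 5 high-control arrays right of it). Hexa, Laptm5 and Aif1 at the top are low on high-control arrays and C1qc and Cd53 at the bottom are high, with differences from -0.61 to 0.26.

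Several genes could be read from more than 1 probe set. For 8 of the 31 there were 15 further probe sets, of which 0 were called in either drinking comparison (limma) and 4 had a mean above log2 4. In prefrontal cortex 6 of the 15 had the opposite sign to the probe set used. The other C1qb probe sets gave -0.17 ± 0.13 and -0.09 ± 0.08 in place of -0.36 ± 0.19, and the other Csf1r probe sets gave 0.02 ± 0.08 and 0.04 ± 0.07 in place of -0.09 ± 0.09. In striatum the other Csf1r probe sets gave 0.23 ± 0.08 and 0.14 ± 0.07 in place of 0.04 ± 0.09. Those of C1qb gave 0.05 ± 0.13 and -0.01 ± 0.08 there, in place of 0.02 ± 0.19. Ctss, Olfml3, Ly86, C1qa and C1qc each had a single probe set, so their values could not be checked in this way. The probe sets of Laptm5 and Itgb5 are of the array's type whose probes may also bind other transcripts, and their values are uncertain for that reason.

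The wider pathways around these genes were read from further lists. Of 34 measured complement genes beside the members (15 components and 19 receptors and regulators, of 40 listed), 0 passed by limma in either drinking comparison, and 2 in prefrontal cortex and 1 in striatum had an unadjusted p under 0.05. The medians of the components and of the receptors and regulators were -0.00 and -0.03 in prefrontal cortex, and 14 of the 15 components had a mean under 4. Properdin (Cfp), which stabilises the alternative pathway convertase, differed by -0.33 ± 0.10 (adjusted p = 0.241) and the terminal pathway inhibitor vitronectin (Vtn) by -0.53 ± 0.21 (adjusted p = 0.565).

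Of 10 ligands that act on microglial receptors, 0 passed by limma in either region (1 had an unadjusted p under 0.05 in prefrontal cortex and 0 in striatum), with a prefrontal median of -0.09. Cx3cl1, the neuronal fractalkine that binds Cx3cr1, differed by -0.36 ± 0.15 in prefrontal cortex (limma, adjusted p = 0.573) and Cd200, a neuronal brake on microglia, by -0.29 ± 0.18 (adjusted p = 0.890). Of 36 further receptors and enzymes and 9 transcription factors, 0 passed by limma in either region, with prefrontal medians of -0.02 and -0.01. At an unadjusted p under 0.05 there were 0 and 2 of them in prefrontal cortex and 2 and 0 in striatum. Mef2c, a factor also made by neurons, fell from prefrontal cortex to striatum by 2.30 on the log2 scale in light drinkers (limma, adjusted p = 0.000180) and by 1.39 in inflexible drinkers (adjusted p = 0.0133). Its prefrontal drinking difference was -0.60 ± 0.20 (adjusted p = 0.367).

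Among 31 genes of activated microglia and inflammation, 30 of them with a mean under 4, H2-Ab1 fell in inflexible prefrontal cortex and 0 rose. This MHC class II chain measured 3.22, 3.27 and 3.15 in light and 3.00, 3.05 and 3.00 in inflexible prefrontal cortex, a difference of -0.20 ± 0.04 (SE, n = 3 arrays a class; limma, adjusted p = 0.0407). All these values lie near the array medians, and H2-Ab1 was read from 1 of its 3 probe sets. This 1 call among 31 genes compares with 1.04% of all genes. An unadjusted p under 0.05 by limma held for 4 of the 31 in prefrontal cortex, against 1668 of all 18193 genes. The invariant chain Cd74, the substrate of cathepsin S, differed by -0.41 ± 0.13 (adjusted p = 0.328). In striatum 0 of the 31 passed by limma, also at an unadjusted p under 0.05, and H2-Ab1 differed by 0.02 ± 0.04.

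Markers of other cells were measured because the RNA came from whole tissue, in which fewer cells of a type and less RNA per cell cannot be told apart. The 10 genes of perivascular and border macrophages were all dim and 0 passed by limma in either drinking comparison (2 in prefrontal cortex and 0 in striatum at an unadjusted p under 0.05), but F13a1 and Mrc1 gave -0.17 ± 0.04 each in prefrontal cortex (limma, adjusted p = 0.0715 and 0.0776). In the regional comparison of light drinkers, in which Ctss fell, both fell as well, by 0.18 and 0.19 on the log2 scale (limma, adjusted p = 0.0280 and 0.0165). These 2 calls among 10 genes compare with 4.68% of all genes. That comparison uses the same light prefrontal arrays as the drinking comparison, so the 2 are not independent. The part of these cells in the Ctss difference was not tested. The summed level of the 10 genes was 86.6 to 90.0 on light and 82.7 to 86.4 on inflexible prefrontal arrays, and 82.0 to 85.1 in striatum. As all 10 were above log2 4 on no array, these sums rest on weak signal. Of 8 monocyte and neutrophil, 8 lymphocyte and 3 red cell genes, all with means under 4, 0 passed by limma in either region, and 1, a monocyte or neutrophil gene in striatum, had an unadjusted p under 0.05. The 8 astrocyte and 7 endothelial genes also gave 0 calls by limma in either region, with prefrontal medians of 0.00 and -0.06. At an unadjusted p under 0.05 there were 1 and 2 of them in prefrontal cortex and 0 in striatum.

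Genes of other cell types passed the same prefrontal drinking comparison. Of 11 oligodendrocyte genes 6 rose in inflexible prefrontal cortex (median 0.99), of 8 striatal projection neuron genes 5 rose (median 1.04) and of 8 choroid plexus and ependyma genes Ttr rose (median 0.20). Of the 7 cortical excitatory neuron genes Neurod6 rose, 3 lay above and 4 below 0, the median was -0.24, and the summed level overlapped (580 to 1040 on light and 500 to 930 on inflexible arrays). The summed oligodendrocyte level was 647 to 985 on light and 1530 to 2120 on inflexible prefrontal arrays. The summed striatal projection neuron level was 234 to 263 and 573 to 577, and the choroid plexus level 74.8 to 78.3 and 1310 to 2170. Where it was high, the choroid plexus sum was mostly Ttr, and 7 of the 8 genes had a mean under 4. Ttr read 4.69, 4.36 and 4.55 on light and 11.04, 10.28 and 11.03 on inflexible prefrontal arrays. In striatum 0 genes of these 4 lists passed by limma, while 2, 6, 0 and 2 of them, in the same order, had an unadjusted p under 0.05. The light prefrontal arrays, on which Ctss and Olfml3 were highest and Ly86 lowest, were thus also those with the lowest summed levels of the oligodendrocyte, striatal projection neuron and choroid plexus lists. The part of tissue composition in the Ctss, Olfml3 and Ly86 differences was not tested.

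**Figure D4:**
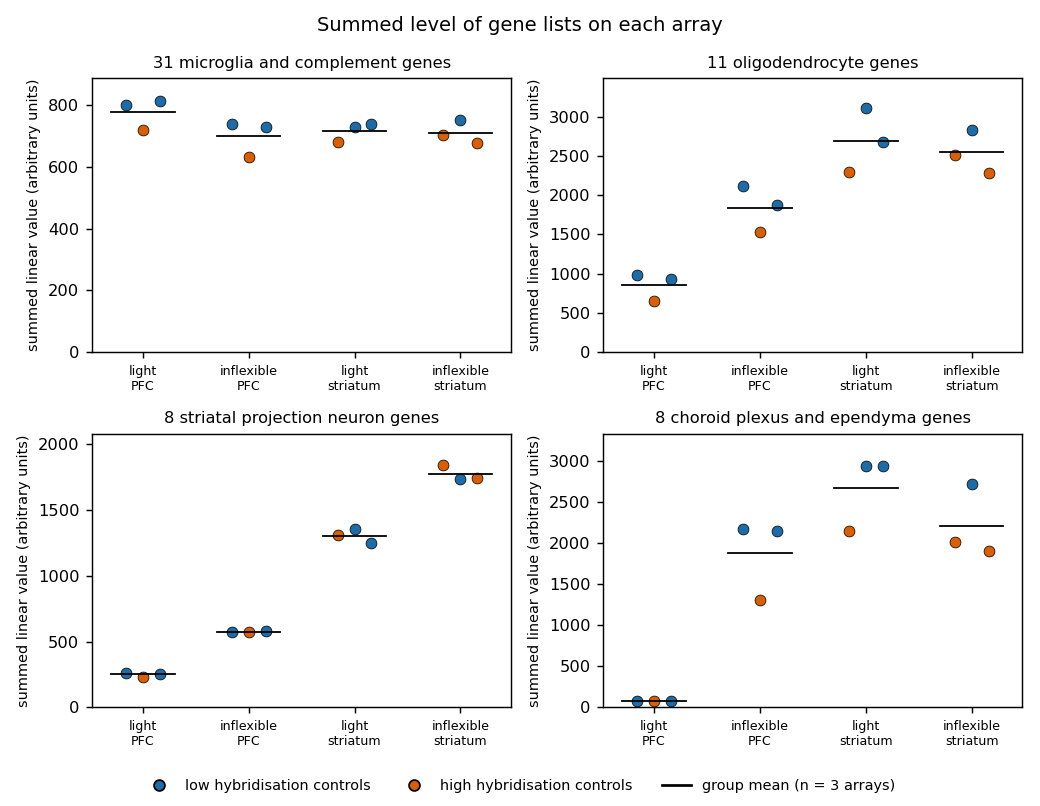
Summed linear value (y axis, arbitrary units, from 0) of the 31 genes and of the oligodendrocyte, striatal projection neuron and choroid plexus lists on each of the 12 arrays by group (x axis), with lines at group means and colours for the control level. The 31 genes stay between 631 and 812 on all arrays, while the choroid plexus list, mostly Ttr where it is high, runs from 74.8 to 2940.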

How the data were processed

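Whole-tissue RNA was labelled with biotin and hybridised to 1-colour oligonucleotide arrays, per the labels. The authors deposited 1 table of log2 probe set values. The submitters' processing notes name RMA and the affy package, with no versions. The log base was read from the range of values, and RMA summaries compress weak signals. Of 45101 probe sets, 64 controls were left out, and 45037 were tested; 34945 had 1 gene symbol, 932 several and 9160 none. The gene ID of 34741 matched RefSeq.

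limma 3.58.1 in R 4.3.3 estimated 4 group means from 12 arrays (8 residual degrees of freedom), and the two-sided p-values were adjusted by the Benjamini-Hochberg method. It was tested on simulated data. Sums, counts and plots were made in Python 3.11.15 (pandas 2.3.3, numpy 2.4.6, matplotlib 3.10.9). The members and lists were chosen with earlier results of these data known.

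Genes given with all arrays were those called in any contrast, those with the smallest p among genes whose classes did not overlap, and the C1q chains. From other lists up to 4 genes with the smallest p in a drinking comparison could be named.

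Same-numbered arrays of the prefrontal classes deviated together (correlations of 0.74, 0.85 and 0.62), and replicate 2 was the array with high controls in both. The numbers were used as pairs in the replicate block. These correlations cannot tell a pairing by number from the shared control level, so they do not show that the arrays were paired. For replicate 1 of one class, replicate 3 of the other correlated best. In striatum (0.25, 0.26 and -0.64), and between regions, the numbers did not pair arrays. Alternatives were a replicate block, the control level as a block or within each level, quantile normalisation, a filter on low values, averaging all probe sets of a gene, array weights, leaving out each array and fitting the compared arrays alone. The replicate block with compared arrays alone and the test of high against low control arrays as a result of its own were chosen after seeing the data, whereas the control level as a block or within each level was listed among the alternatives at the start.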

Additional observations from a re-analysis of the deposited data

Results flagged for a closer look

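The drinking difference depended on region for 5 genes of the cell type lists read beside the microglial genes, by the interaction test in limma. The striatal minus the prefrontal difference was -6.54 for Ttr, the thyroxine carrier made by choroid plexus, -1.96 for Mobp, a myelin protein, and -0.70 for Aspa, the aspartoacylase of oligodendrocytes. It was -1.06 for Bcl11b, a transcription factor of striatal projection neurons, and -1.0 for Neurod6, a factor of cortical excitatory neurons. Opalin, an oligodendrocyte membrane protein, had all inflexible arrays above the light ones in prefrontal cortex and all below them in striatum, but its difference of -0.89 did not pass (limma, adjusted p = 0.148). None of the 31 microglia and complement genes passed that test. No array of a group of 3 can be judged as an outlier by the gap test used for 4 or more.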

How the results depend on the processing

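Counts of called genes moved with the settings, and no called difference reversed its sign. The median of the 31 genes changed sign with array weights in striatum (-0.02 for 0.02) and between regions in inflexible drinkers (-0.02 for 0.03), without inflexible replicate 2 or light replicate 1 in striatum (-0.01), without inflexible prefrontal replicate 2 between regions (-0.03 for 0.03), and within high-control arrays between regions in light drinkers (0.04 for -0.09). In prefrontal cortex the 2 calls among the 31 genes became 1 with the replicate block, 0 with the filter on low values, 6 with array weights, 0 with the compared arrays alone and 0 to 1 when an array was left out. Of all genes, 189 became 108, 580, 766, 330, 1504, 106 and 498 with the replicate block, the control block, within high-control arrays, within low-control arrays, with array weights, with compared arrays alone and with the block on these alone (80 to 177 with an array left out). In striatum the 31 genes gave 0 calls under every setting run, while 4 of all genes became 20, 1, 0, 2, 0 and 0 with the control block, within high, within low, the filter, compared arrays alone and the block on these alone (1 to 3 with an array left out). For the interaction, 0 became 1 within high-control arrays and 2 with array weights (0 to 1 with an array left out), and 80 of all genes became 24, 242, 293, 31 and 428 with the replicate block, the control block, within high, within low and array weights (28 to 87). Between regions in light drinkers, 2 became 8 within high, 1 within low, 1 with the filter and 1 with the compared arrays alone (0 to 1), and 851 of all genes became 1792, 1863, 1368 and 2457 with the control block, within high, within low and array weights (542 to 780). In inflexible drinkers, 0 became 3 within high, and 219 became 583, 1415, 140, 529 and 40 with the control block, within high, within low, array weights and compared arrays alone (107 to 203). Averaged over regions, 0 became 1, 1 and 2 with the control block, within high and array weights, and 68 became 23, 217, 349 and 319 with the replicate block, control block, within high and array weights (23 to 65). Among the 31 genes the replicate block changed the count in prefrontal cortex alone, and in the regional comparison of light drinkers it called Olfml3 in place of Ly86 (adjusted p = 0.0938). In prefrontal cortex and in striatum alike, not every array correlated best with its own number. The cause of these shifts was not tested. Within the high-control arrays each prefrontal group and light striatum have 1 array, and within the low-control arrays inflexible striatum has 1. These single arrays were assumed to vary like the other groups. Signal near the array medians limits the 17 genes with a mean under log2 4.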
